A study of Bombyx mori with 9 samples.

Results

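Silk gland transcript levels of the silkworm strain A306, which has the lightest glands of the series, were compared with those of strain A798, which has the heaviest. The comparison used the 3 libraries of each strain, 6 of the 9 libraries of the series. Features with at least 1 FPKM in 3 or more of these 6 libraries were kept, 4243 of the 15745 listed. Of the features kept, 4220 were genes and 23 were models of ribosomal or other small RNAs, and 546 (12.9%) carried a name or a description in the authors' table. FPKM is a fragment count scaled to transcript length and to the mapped total of the library, so it gives levels per length. All changes are given as A306 minus A798 on the scale log2(FPKM + 1), first as deposited and then after the median of each library over the features kept was set to 1 common value, which is called centring here.

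Both strains are pure strains of Bombyx mori, the domestic silkworm, raised alike at 25 °C and 71% humidity and sampled on day 5 of the larval instar 5, the last before the cocoon is spun. The labels name no treatment or transgene, and the contrast is that of strain. Values of XH, the third strain of the series, with glands of intermediate weight, are given for some genes as a description and were not tested. RNA was total RNA of the silk gland as the labels name it, with no division into its middle and posterior parts. Each sample carries 2 stated gland weights, whose mean per sample was 0.688 ± 0.0207 g in A306 and 1.28 ± 0.0309 g in A798 (mean ± SD, n = 3), so that A306 glands weighed 53.7% of A798 glands. The samples of the strains did not overlap, and p was 0.1 by an exact permutation test, two-sided, the smallest value that 3 samples against 3 allow. The strains were compared as the lightest and heaviest by these same weights, so the difference was built into the choice and the test adds no support. Neither sex nor animal is stated for any library, and a strain's 3 libraries may or may not be from different larvae. The p-values below therefore refer to the spread among the deposited samples, part of which may be technical.

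The silk gland is a pair of long tubes that derive from salivary glands. Its cells stop dividing in the embryo, copy their DNA many times without division, and secrete silk proteins through the endoplasmic reticulum and the Golgi apparatus. The posterior part makes fibroin, a complex of a very large heavy chain rich in glycine and alanine, a light chain bonded to it, and P25 (fibrohexamerin), and the middle part coats the thread with sericins. Storage proteins and 30K lipoproteins, by contrast, are made by the fat body and released into the haemolymph that bathes the gland.

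The 6 libraries held the transcripts that define the tissue. FIBL was among the 10 most abundant features and P25 was at 3763 FPKM or more in every library, and the silk gland transcription factors SGF1 and SGF3 were between 41.4 and 57.0 FPKM. No sericin gene was analysed, since no name or description matched. Haemocyte and midgut markers were low beside these: the summed FPKM of 2 haemocyte genes was 1.95 to 2.96 over the 6 libraries and that of 5 midgut genes 0.43 to 1.23. Other lists were not as low. The sum of 4 muscle genes was 38.1 to 81.2, in the range of SGF1 and SGF3. That of 18 fat body and haemolymph genes was 70.2 to 77.3 in A306 and 622 to 641 in A798. That of 178 cuticle protein genes was 12113 to 13470 in A306 and 3482 to 3640 in A798. Across features, log2 values correlated at r = 0.965 to 0.969 within a strain and at r = 0.886 to 0.895 between strains.

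As deposited, most features that differed were higher in A306, and centring removed this imbalance. Of the 4243 features, 47.8% were called at an adjusted p below 0.05 as deposited, 1648 higher (38.8%) and 379 lower (8.93%). After centring 32.1% were called, 652 higher (15.4%) and 712 lower (16.8%). The median change of all features was 0.33 as deposited and -0.02 after centring, and the library medians were 3.01, 2.99 and 2.97 in A306 and 2.67, 2.66 and 2.59 in A798 on the log2 scale, without overlap. Because 1 factor per library moves so many calls, a feature is said here to have risen or fallen only where both scales called it in the same direction. That held for 652 features that rose (15.4%) and 379 that fell (8.93%), 24.3% of the total, and the counts of group members below are to be read against these shares. Each feature called higher after centring was also higher as deposited, and each one lower as deposited was also lower after centring. The centred scale thus decided which features rose, and the deposited scale which fell. A further 961 features were higher as deposited and not called after centring, 35 were called higher and then lower, and 298 were called lower only after centring. The 3 libraries of 1 strain lay beyond all 3 of the other for 59.5% of features as deposited and for 48.6% after centring.

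**Figure D1:**
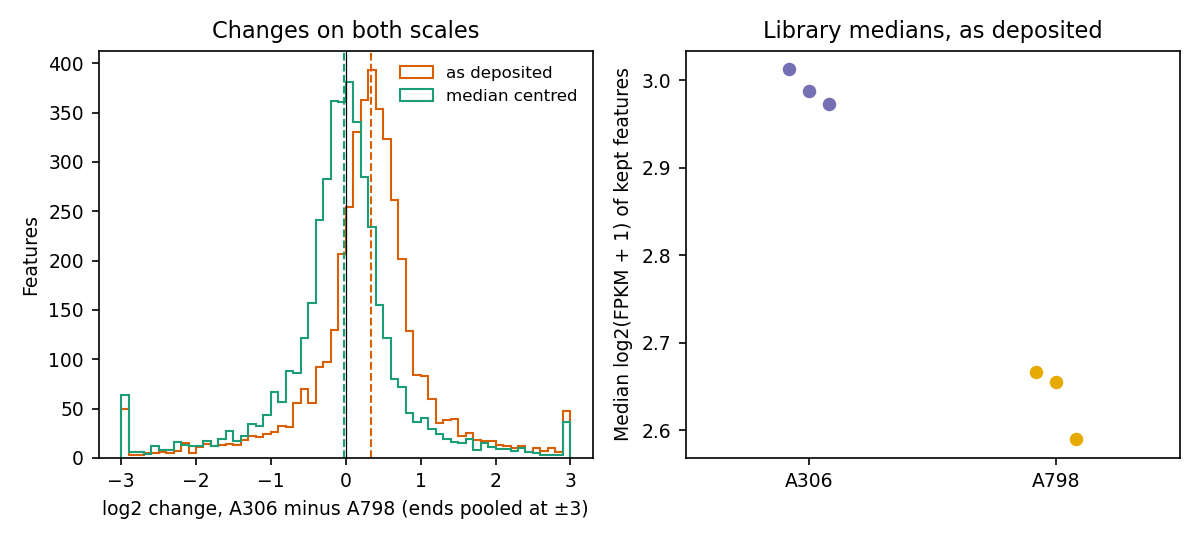
The left panel counts features by their log2 change, A306 minus A798, as deposited and after median centring, with the medians (0.33 and -0.02) as dashed lines and changes beyond 3 pooled at the ends. The right panel gives the median log2(FPKM + 1) of the features kept in each library as 1 point, between 2.97 and 3.01 in A306 and between 2.59 and 2.67 in A798.

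Large changes were more often falls than rises. Of the features that rose, 224 changed at least 2-fold after centring (5.28%), and of those that fell, 288 did (6.79%). Only 19 and 48 of these carried a name or description, and 52 and 48 were listed at 0 in all libraries of 1 strain, where the pseudocount sets the fitted size. Among 94 features averaging at least 1000 FPKM, 7 rose and 15 fell, and 1 of the former and 5 of the latter changed at least 2-fold. The share of the 94 that fell at least 2-fold was thus near that of all features, and the share that rose as much was lower. The share that rose was 9.94% of 1861 features below 5 FPKM on average, 17.98% of 1335 between 5 and 20 FPKM, 21.8% of 693 between 20 and 100 FPKM and 21.5% of 354 above that, while the share that fell ran from 7.27% to 13.0%.

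**Figure D2:**
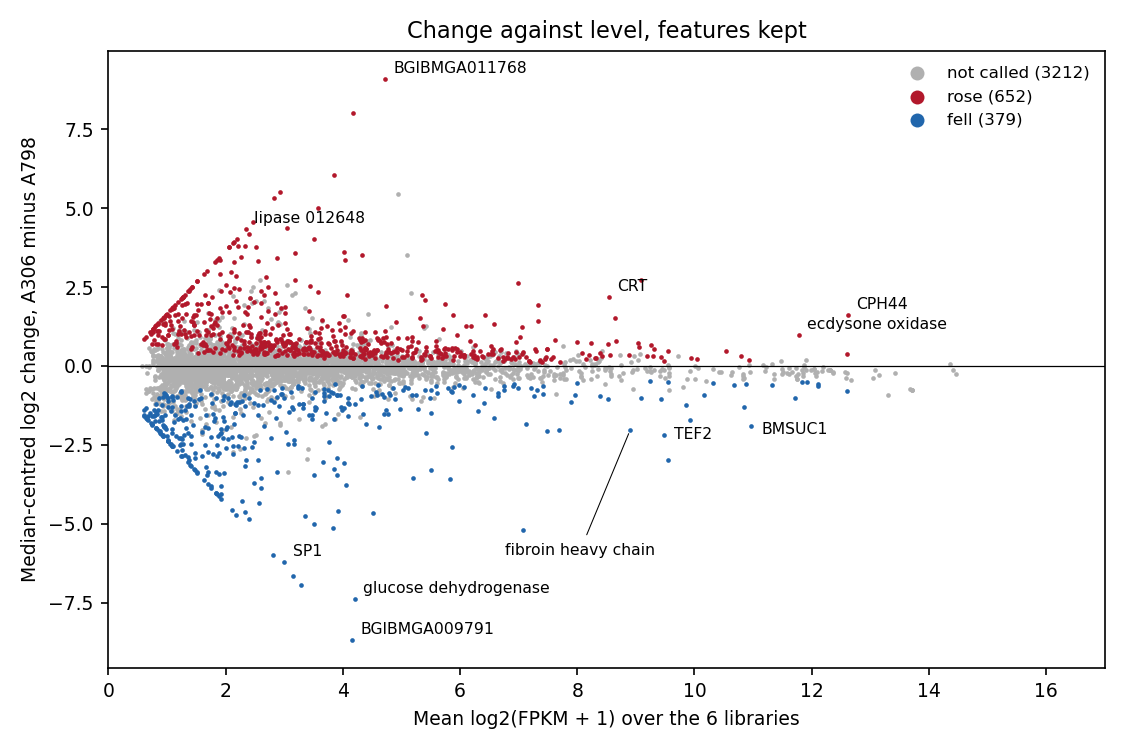
Each point is 1 of the 4243 features kept, with its mean log2(FPKM + 1) over the 6 libraries on the horizontal axis and its median-centred log2 change, A306 minus A798, on the vertical axis. Red points rose (652) and blue points fell (379) on both scales, and the straight outer edges at the left are features listed at or near 0 in 1 strain. The points farthest from 0 lie at low to middling means, and a value at or near 0 in 1 strain lowers the mean of such a feature.

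Among the silk proteins the heavy chain alone fell. Fibroin heavy chain (BGIBMGA005111), the bulk of the silk filament, stood at 262, 267 and 274 FPKM in A306 and at 828, 841 and 893 FPKM in A798. All A306 libraries lay below all A798 libraries, with a log2 change of -1.67 ± 0.041 as deposited and -2.02 ± 0.059 after centring (limma adjusted p = 4.63e-06 and 8.64e-06). The light chain FIBL stood at 23927, 23698 and 23592 FPKM in A306 and at 19988, 20757 and 19575 FPKM in A798. It was higher in every A306 library as deposited (log2 change 0.24) and lower after centring (-0.11), with adjusted p = 0.00152 as deposited and 0.0204 after centring, so no direction is given for it. P25, a glycoprotein bound to both chains, was measured at 4565, 4603 and 4684 FPKM in A306 and at 3763, 4042 and 3780.3 FPKM in A798 and behaved alike (log2 change 0.26, centred -0.10). Heavy chain FPKM was 1.10%, 1.13% and 1.16% of light chain FPKM in A306 and 4.14%, 4.05% and 4.56% in A798, a ratio that no factor per library can change. Light chain FPKM per P25 FPKM was 5.14 ± 0.103 in A306 and 5.21 ± 0.0918 in A798 (SD, n = 3). How well the heavy chain gene model matches the sequence of each strain was not tested.

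The transcription factors known to act on silk genes were not called in the same direction on both scales. SGF1, a forkhead factor that acts on the sericin-1 gene, stood at 48.1, 52.2 and 57.04 FPKM in A306 and at 50.9, 53.8 and 49.4 FPKM in A798, with overlap between the strains as deposited. SGF3, a POU factor of the silk gland, stood at 41.4, 47 and 48.9 FPKM in A306 and at 43.95, 46.7 and 43.7 FPKM in A798 and overlapped too. Their changes were 0.03 for both as deposited and -0.33 for both after centring (limma adjusted p = 0.0267 and 0.0296 there). After centring both were called lower, and every A306 library lay below every A798 library. FMBP-1, which binds the fibroin gene, stood at 11.2, 8.54 and 12.7 FPKM in A306 and at 11.2, 10.8 and 7.85 FPKM in A798 and overlapped as well (log2 change 0.11, centred -0.25). Of 15 homeobox and other patterning genes 6 passed the filter, and none rose or fell, with a median centred change of -0.12.

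A large part of each library came from few features. The 20 most abundant took between 37.3% and 46.7% of the FPKM sum. Silk structural genes took 4.89%, 4.93% and 4.99% of the sum in A306 and 4.61%, 5.10% and 4.17% in A798, and cytosolic ribosomal protein genes took between 22.8% and 26.7% in the 6 libraries. Models of ribosomal RNA took 6.91%, 7.22% and 8.62% in A306 and 11.3%, 6.23% and 19.6% in A798, where the libraries of 1 strain thus differed more than the strains. A feature that takes more of a library lowers the FPKM of all others, and the part of this in the lower A798 medians was not tested. Of the 10 most abundant features 5 were genes without a name, among them BGIBMGA000013, at 23409.7, 23315 and 22985 FPKM in A306 and at 21679.7, 22451 and 21684 FPKM in A798.

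**Figure D3:**
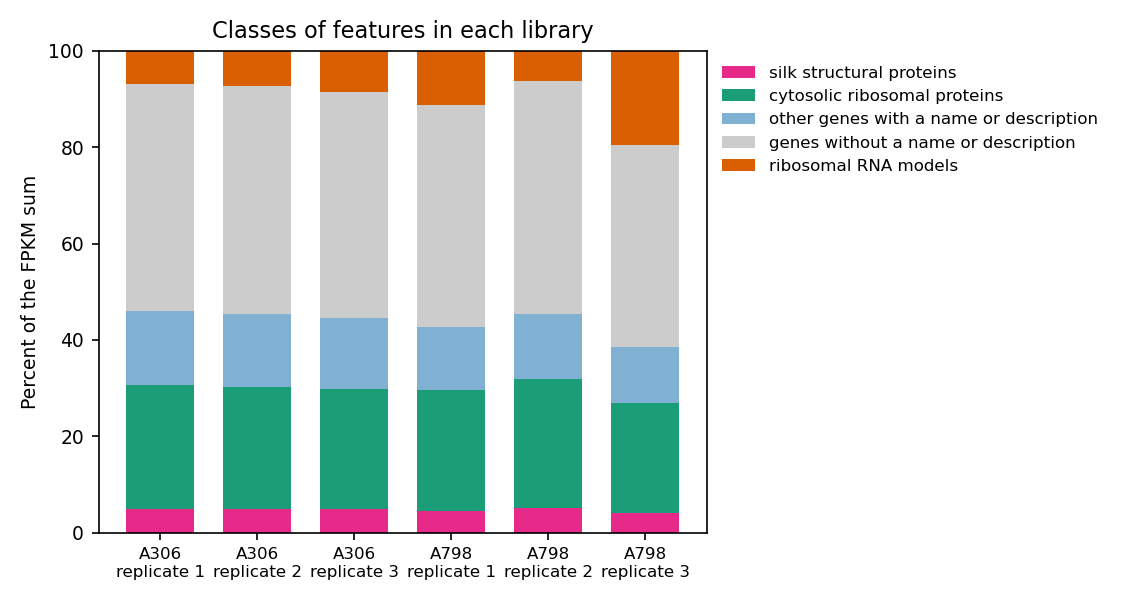
Bars give the percent of the FPKM sum of each library taken by 5 classes of features, which add to 100%. Ribosomal RNA models range from 6.23% in A798 replicate 2 to 19.6% in A798 replicate 3, and silk structural genes stay between 4.17% and 5.10%.

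The gene lists below were matched on words in the names and descriptions, and genes are named by a fixed rule. Of 143 genes in the lists or named by the rule that rose or fell, 39 lost the call when 1 library was left out. Where a gene described below is one of them, the libraries are named with the highest adjusted p over all alternatives that ended the call. A gene below 1 FPKM in every library of 1 strain, listed at 0 or not, passed the filter through the other strain alone, so its difference was built into the filter. For single genes the log2 change as deposited is followed by the centred one, and the libraries of the strains did not overlap as deposited unless overlap is named. The median of each list is given after centring, beside -0.02 for all features.

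**Figure D4:**
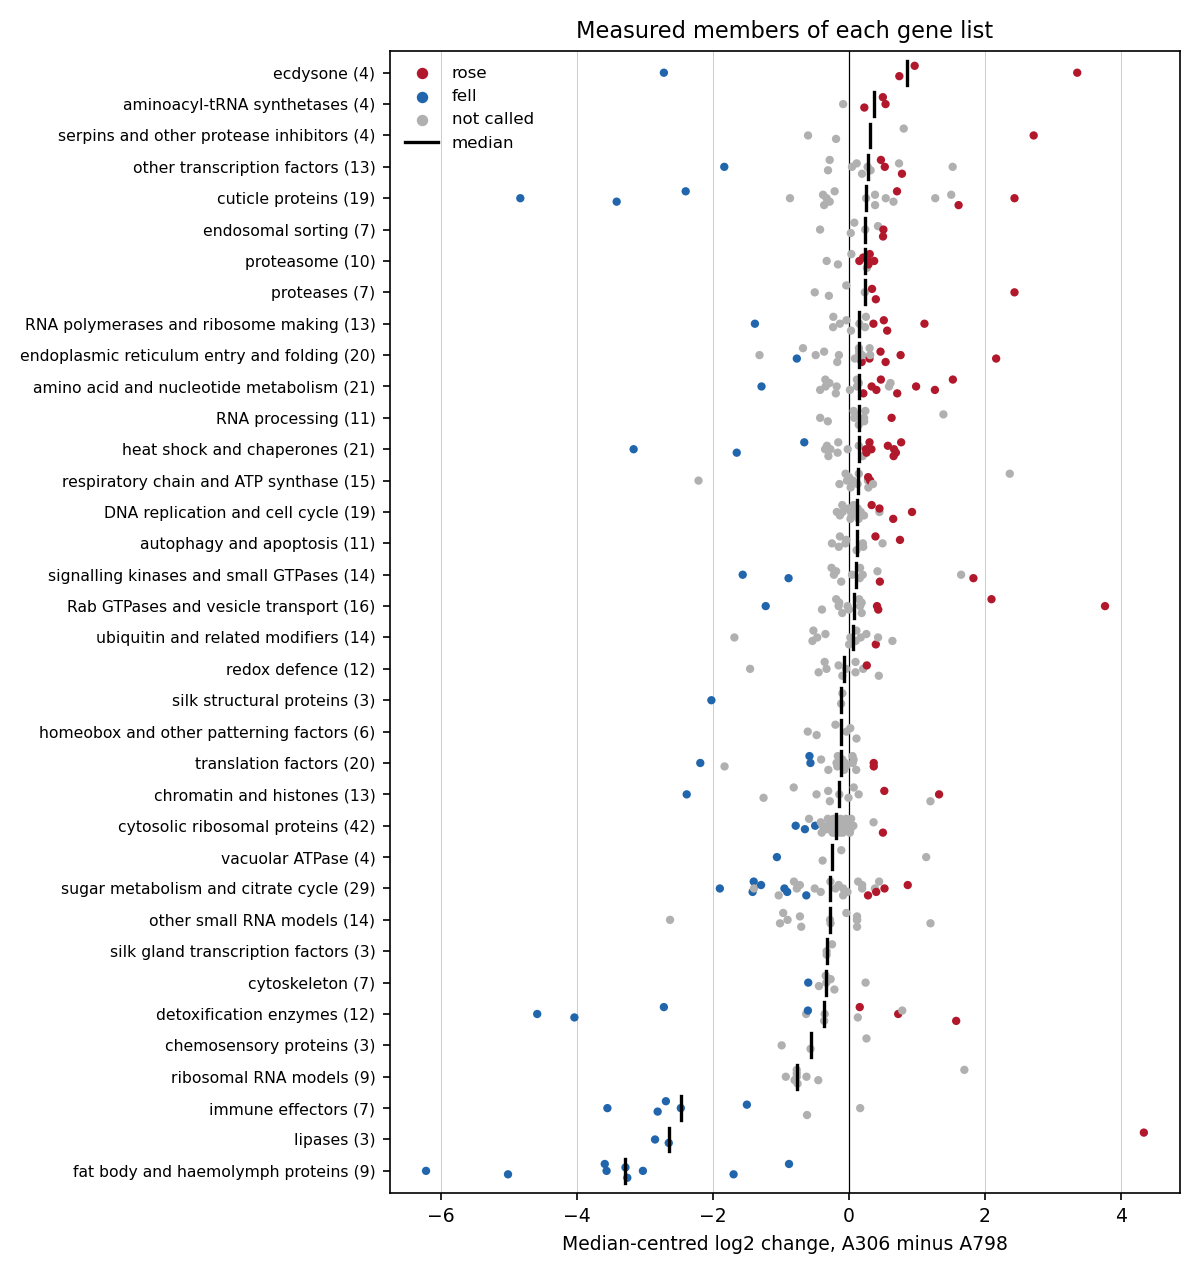
Each row is a gene list with at least 3 measured members, their number in brackets, and each point is a member at its median-centred log2 change, A306 minus A798. Red points rose, blue points fell, grey points did not pass on both scales, and the black bar is the list's median, which runs from -3.29 for fat body and haemolymph proteins to 0.86 for ecdysone genes.

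Several genes for entry into the endoplasmic reticulum and for folding there rose, and the largest change was that of a chaperone. Of 22 genes matched 20 were measured, 6 rose, 1 fell and 13 did not pass on both scales, with a median of 0.15. Calreticulin (CRT), a calcium-binding chaperone of glycoproteins, stood at 910.4, 843 and 914 FPKM in A306 and at 159.8, 231 and 98.7 FPKM in A798. The A798 libraries differed among themselves by more than the A306 libraries did, but none reached them, and the log2 change was 2.52 ± 0.29 as deposited and 2.17 ± 0.28 after centring (limma adjusted p = 0.00122 and 0.00254). The Sec61 complex is the channel through which new proteins enter the reticulum. Its alpha subunit SEC61ALPHA stood at 2266, 2244 and 2184 FPKM in A306 and at 1393, 1462 and 1391 FPKM in A798, without overlap (log2 change 0.66, centred 0.30). The beta subunit BGIBMGA006209, at 3543, 3484 and 3216 FPKM in A306 and at 2455, 2303 and 2445 FPKM in A798, also lay higher in every A306 library, but its change of 0.15 after centring had an adjusted p of 0.0660. A signal sequence receptor gene (BGIBMGA011599), whose protein sits at the channel, stood at 1006, 984 and 995 FPKM in A306 and at 574, 566 and 549.8 FPKM in A798 and rose (log2 change 0.82, centred 0.47). Among the peptidyl-prolyl isomerases, which help proteins fold, FKBP45 stood at 186, 176 and 182 FPKM in A306 and at 85.8, 82.2 and 81.5 FPKM in A798 and rose without overlap (log2 change 1.12, centred 0.76). CYPA, the most abundant of them, stood at 2365, 2399.7 and 2304 FPKM in A306 and at 1643, 1593 and 1615 FPKM in A798 and rose by less (log2 change 0.54, centred 0.19). Its call was lost when limma was fitted without an intensity trend (adjusted p = 0.0791). The sixth, BGIBMGA013635, rose from a low level (log2 change 0.89, centred 0.54) and lost the call without A306 replicate 1 or 3 or A798 replicate 2 or 3 (adjusted p up to 0.0872). The gene that fell, BGIBMGA004940, encodes a synoviolin-like protein, a ubiquitin ligase that removes misfolded proteins from the reticulum, and stood at 39.5, 34.7 and 32.8 FPKM in A306 and at 46.3, 48.6 and 48.01 FPKM in A798 (log2 change -0.41, centred -0.77).

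Of 16 measured genes of Rab GTPases and vesicle transport, 4 rose and 1 fell (median 0.08). RAB11, a GTPase of recycling vesicles, stood at 91.7, 113 and 90.04 FPKM in A306 and at 12.1, 22.9 and 17.6 FPKM in A798. The lowest A306 library was well above the highest A798 library, with a log2 change of 2.45 ± 0.23 as deposited and 2.10 ± 0.23 after centring (limma adjusted p = 0.000528 and 0.00141). A gene described as Rab1 (RABB), a GTPase between the reticulum and the Golgi apparatus, stood at 20.2, 17.4 and 12.6 FPKM in A306. In A798 and XH the gene was listed at 0 throughout, so no fold is given. BMO.722, a coatomer subunit of vesicles that return to the reticulum, stood at 68.98, 69.2 and 67.9 FPKM in A306 and at 40.8, 40.6 and 38.4 FPKM in A798 (log2 change 0.77, centred 0.41). The ADP-ribosylation factor gene BGIBMGA005347 rose by 0.79 as deposited and 0.43 after centring, a call lost without A306 replicate 1 or 3 or A798 replicate 2 or 3 (adjusted p up to 0.0727). The gene that fell, BGIBMGA005176, encodes a SNARE of vesicle fusion, and stood at 2.35, 2.21 and 2.44 FPKM in A306 and at 6.19, 4.65 and 4.56 FPKM in A798 (log2 change -0.87, centred -1.22). Of 7 measured genes of endosomal sorting, 2 rose. One was the Vta1 gene BGIBMGA004694, a cofactor of membrane release, at 31.7, 31.7 and 31 FPKM in A306 and at 17.6, 16.4 and 16.6 FPKM in A798 (log2 change 0.86, centred 0.51). The other, EAP30, rose from a mean of 10.2 to 19.2 FPKM and lost its call without any 1 of the A306 libraries or A798 replicate 3 (adjusted p up to 0.0518).

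Ribosomal protein genes changed direction with the scale. Of 42 measured cytosolic ribosomal protein genes, 24 were higher as deposited and 22 lower after centring, and on both scales 1 rose and 3 fell, with a median of 0.17 as deposited and -0.19 after centring. RPS26 stood at 5394, 5457 and 5268 FPKM in A306 and at 7174, 7307 and 7218 FPKM in A798 and fell on both scales (log2 change -0.43, centred -0.78). RPS3 stood at 4077, 3951 and 3875 FPKM in A306 and at 4812, 5001 and 4770.3 FPKM in A798 and fell too (log2 change -0.29, centred -0.65), as did RPS20 (log2 change -0.14, centred -0.50). The call of RPS20 was lost without any 1 of the A798 libraries (limma adjusted p up to 0.0758), and also without the filter on level or the intensity trend (adjusted p up to 0.146). RPL20, at 32.9, 29.2 and 31.8 FPKM in A306 and at 18.2, 17.02 and 15.5 FPKM in A798, was the gene that rose (log2 change 0.86, centred 0.50), and it was far less abundant than the others named. A further 7 ribosomal protein genes were listed at 0 in all 6 libraries, and whether such a 0 is an absent transcript or a failed estimate was not tested.

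Of 20 measured translation factor genes 2 rose and 3 fell (median -0.12); those that fell act in elongation and those that rose in initiation. TEF2, which moves the ribosome along the messenger, stood at 443, 326 and 371 FPKM in A306 and at 1388, 1513 and 1157 FPKM in A798. Every A798 library was more than 2-fold above every A306 library, and the log2 change was -1.83 ± 0.14 as deposited and -2.19 ± 0.13 after centring (limma adjusted p = 0.000284 and 0.000109). EF-1G, a subunit of the factor that recharges elongation factor 1, stood at 4085, 4104 and 4173 FPKM in A306 and at 4706, 4888 and 4719 FPKM in A798 and fell by less (log2 change -0.21, centred -0.56). EF1BETA, of the same factor, stood at 1802, 1745 and 1698 FPKM in A306 and at 2063, 2042 and 2028 FPKM in A798 and fell by a like amount (log2 change -0.23, centred -0.58). EIF3C, a scaffold of initiation factor 3, stood at 113, 115 and 114 FPKM in A306 and at 68, 70.2 and 67.7 FPKM in A798 and rose (log2 change 0.72, centred 0.37), as did the initiation factor gene BGIBMGA001437 (log2 change 0.72, centred 0.37). Of 4 measured aminoacyl-tRNA synthetase genes, which load amino acids on transfer RNA, 3 rose (median 0.36). The glycine enzyme (BGIBMGA007637) stood at 133, 121 and 129 FPKM in A306 and at 68.8, 69.8 and 66.8 FPKM in A798 (log2 change 0.89, centred 0.54). The alanine enzyme (BGIBMGA006216) stood at 83.1, 76.7 and 71.8 FPKM in A306 and at 41.5, 43.4 and 41.7 FPKM in A798 (log2 change 0.85, centred 0.50). The lysine enzyme BMO.457 rose by 0.58 as deposited and 0.23 after centring, and lost its call without A306 replicate 1 or 3 or A798 replicate 1 or 2 (adjusted p up to 0.0828). FRSB, for phenylalanine, was not called after centring (log2 change 0.27, centred -0.08).

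Of 13 measured genes of RNA polymerases and ribosome making, 4 rose and 1 fell (median 0.15). BGIBMGA000029, described as nucleolar protein family A member 2, a part of particles that modify ribosomal RNA, stood at 41.5, 37.5 and 51.3 FPKM in A306 and at 18.6, 11.7 and 15.3 FPKM in A798 (log2 change 1.47, centred 1.11). BMO.801, a factor for the large subunit, stood at 42.8, 41.8 and 38 FPKM in A306 and at 23.8, 21.2 and 18.8 FPKM in A798 (log2 change 0.92, centred 0.56). The RNA polymerase genes BMO.7172 and BGIBMGA004994 rose by 0.36 and 0.51 after centring. The first lost its call without any 1 of the A306 libraries or A798 replicate 1 or 3 (adjusted p up to 0.0777), and the second without any 1 of the A306 libraries or A798 replicate 1 or 2 (adjusted p up to 0.0727). RPA43_N, named for a domain of an RNA polymerase I subunit, fell from 17.6, 13.5 and 15.6 FPKM in A798 to 6.76, 6.67 and 7.83 FPKM in A306 (log2 change -1.03, centred -1.38). Of 11 genes of RNA processing, the mago nashi gene BGIBMGA003398 rose (log2 change 0.98, centred 0.63), a call lost without A306 replicate 1 or 3 or A798 replicate 2 or 3 (adjusted p up to 0.0890).

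The proteasome degrades proteins tagged with ubiquitin. Of its 10 measured genes 6 rose and none fell (median 0.24), with changes of 0.15 to 0.37 after centring in those that rose. Another 2 were called lower after centring but not as deposited. The subunit gene with the largest change, BGIBMGA005560, stood at 67.9, 64.8 and 61.5 FPKM in A306 and at 38.8, 39.8 and 37.5 FPKM in A798 (log2 change 0.73, centred 0.37). The core subunit gene BMO.323 stood at 142, 133 and 137 FPKM in A306 and at 89.8, 86.5 and 88.01 FPKM in A798 (log2 change 0.63, centred 0.28). The call of BGIBMGA005994 was lost without A306 replicate 1 or 3 (adjusted p up to 0.0660). Of 14 genes of ubiquitin and related modifiers only SMT3, the SUMO gene, rose (log2 change 0.75, centred 0.40), and its call was lost without any 1 of the libraries other than A306 replicate 3 (adjusted p up to 0.136). Of 21 measured heat shock and chaperone genes 9 rose and 3 fell (median 0.15). Of those that rose, DNAJ-8 lost its call without any 1 of the libraries (limma adjusted p up to 0.114). HSP70-14 lost it without A306 replicate 1 or 3 (adjusted p up to 0.0532). HSP90, a chaperone of signalling proteins, stood at 545, 511 and 523 FPKM in A306 and at 258, 258 and 247 FPKM in A798 (log2 change 1.05, centred 0.69). The genes of the ring-shaped cytosolic chaperonin did not move together. BGIBMGA013116, its zeta subunit, stood at 112, 104 and 108 FPKM in A306 and at 54.1, 53.2 and 51.7 FPKM in A798 and rose (log2 change 1.01, centred 0.66), as did the alpha subunit BGIBMGA006263 (log2 change 0.93, centred 0.57). Another chaperonin gene, BGIBMGA001206, stood at 54.4, 51.4 and 51.8 FPKM in A306 and at 65.5, 65.7 and 63.8 FPKM in A798 and fell (log2 change -0.30, centred -0.66). Among small heat shock proteins, which hold unfolded proteins in solution, HSP20.4 stood at 65.8, 57.1 and 57.4 FPKM in A306 and at 146, 159 and 142 FPKM in A798 and fell (log2 change -1.30, centred -1.65). BGIBMGA005781, described as heat shock protein 25.4, stood at 0.89, 0.75 and 1.08 FPKM in A306 and at 13.3, 12.5 and 11.4 FPKM in A798 and fell further (log2 change -2.81, centred -3.17). HSP21.4 instead rose, at 1237, 1214 and 1164 FPKM in A306 and at 790.1, 813 and 773 FPKM in A798 (log2 change 0.61, centred 0.25). Of 11 genes of autophagy and apoptosis 2 rose: BGIBMGA004328, the nuclease Endog (log2 change 1.11, centred 0.75), and the Atg3 gene BGIBMGA003767, whose call was lost without A306 replicate 1 or 2 or A798 replicate 2 or 3 (adjusted p up to 0.1).

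All 4 genes matched to ecdysone passed on both scales, and 3 rose and 1 fell. Ecdysone is the moulting hormone, made in the prothoracic gland, and its receptor pairs with ultraspiracle. Ecdysone oxidase (BGIBMGA000158), which oxidises ecdysone on the way to its inactivation, stood at 5644, 5516 and 5467 FPKM in A306 and at 2217, 2293 and 2138 FPKM in A798. In deposited FPKM it was more than 2-fold higher in every A306 library. The log2 change was 1.32 ± 0.035 as deposited and 0.97 ± 0.026 after centring (limma adjusted p = 5.65e-06 and 6.15e-06), and XH was near A798 at 2366, 2326 and 2422 FPKM. The gene of an ecdysteroid-regulated 16 kDa protein (BGIBMGA008405) stood at 369, 369.6 and 381 FPKM in A306 and at 187, 179.7 and 157 FPKM in A798 and rose as well (log2 change 1.10, centred 0.74). Ultraspiracle (USP) stood at 14.4, 12.7 and 9.7 FPKM in A306 and was listed at 0 in all A798 and all XH libraries. CYP306A1, the cytochrome P450 that hydroxylates the side chain in ecdysone synthesis, stood at 0.54, 0.46 and 0.3 FPKM in A306 and at 7.1, 5.54 and 6.6 FPKM in A798, and fell without overlap (log2 change -2.37, centred -2.72). It passed the filter through A798 alone, and USP through A306 alone, so a difference in these 2 was built into the filter. Of 4 juvenile hormone genes only AN0895, described as a juvenile hormone binding protein, was measured. It stood at 16.04, 12.9 and 16.8 FPKM in A306 and at 5.33, 7.06 and 7.37 FPKM in A798 and rose (log2 change 1.10, centred 0.75), a call lost without A306 replicate 1 or 3 (adjusted p up to 0.0627).

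**Figure D5:**
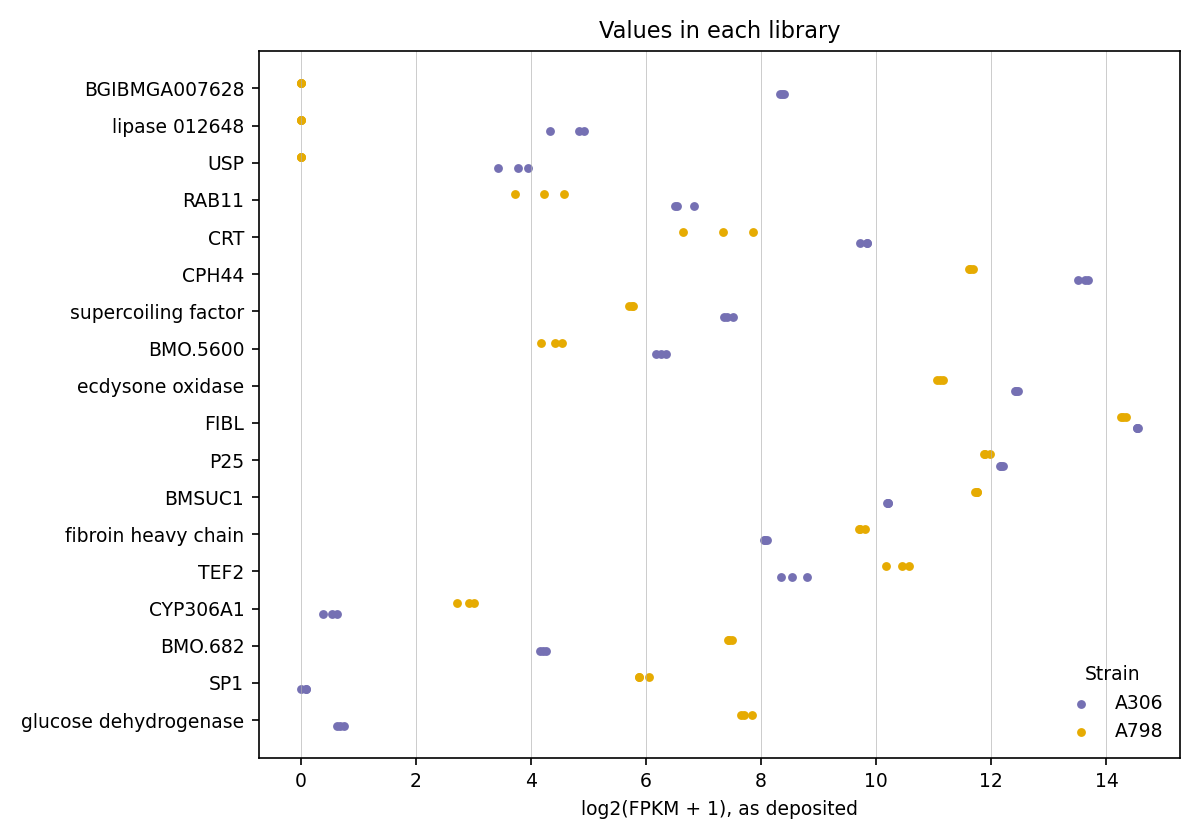
Points are the 6 libraries, 3 per strain, on the log2(FPKM + 1) scale as deposited, for 18 of the named features. Fibroin light chain and P25 lie close together in both strains, while glucose dehydrogenase, at 0.54 to 0.68 FPKM in A306 and 199 to 227 FPKM in A798, lies farthest apart among features with values above 0 in both.

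Glucose dehydrogenase (BGIBMGA005711), which oxidises free glucose, had the largest change among called genes with a name or description, though its description did not match the words of the sugar metabolism list. It stood at 0.61, 0.54 and 0.68 FPKM in A306 and at 227, 208 and 199 FPKM in A798. Every A306 library was below 1 FPKM and every A798 library at 199 FPKM or more, so it passed the filter through A798 alone and a difference was built in (log2 change -7.04, centred -7.40). In XH it stood at 2.69, 2.86 and 2.35 FPKM, far below A798 as well. BMSUC1, a beta-fructofuranosidase that splits sucrose, stood at 1174, 1160.0 and 1177 FPKM in A306 and at 3445, 3456 and 3351 FPKM in A798, with libraries of a strain within a few percent of each other and a log2 change of -1.55 ± 0.027 as deposited and -1.90 ± 0.026 after centring (limma adjusted p = 1.19e-06 and 5.37e-07). It belonged to the list of sugar metabolism and the citrate cycle, whose summed FPKM was 4113 to 4174 in A306 and 5943 to 6171 in A798. BMSUC1 alone made the lower sum of A306, and the rest of the list summed higher in A306 as deposited. Of the 29 measured genes of that list 4 rose and 7 fell (median -0.27), with 2 kept through A798 alone. These 2, GLCNACASE3 and BGIBMGA009232, were among those that fell, so their difference was built in. The first lost its call without A306 replicate 2 or 3 or A798 replicate 1 or 2 (limma adjusted p up to 0.0660). The second lost it without A306 replicate 2 (adjusted p up to 0.0609). Glucose-6-phosphate isomerase (BGIBMGA004221), an early step of glycolysis, stood at 54.1, 54.7 and 52.4 FPKM in A306 and at 113, 117 and 110.1 FPKM in A798 and fell (log2 change -1.06, centred -1.42). Fructose-1,6-bisphosphatase (BGIBMGA001399), which works in the opposite direction to glycolysis, stood at 37.1, 35.7 and 35.5 FPKM in A306 and at 15.8, 15.6 and 13.5 FPKM in A798 and rose (log2 change 1.22, centred 0.87). Glucose-6-phosphate dehydrogenase (BGIBMGA005966), the entry to the pentose phosphate pathway, stood at 20.6, 19.3 and 21.4 FPKM in A306 and at 12.4, 11.3 and 11.3 FPKM in A798 and rose (log2 change 0.76, centred 0.40). Of 2 genes described as NADP isocitrate dehydrogenase, BGIBMGA007586 stood at 242, 237 and 241 FPKM in A306 and at 126, 141 and 124 FPKM in A798 and rose (log2 change 0.88, centred 0.52). The other, IDH, stood at 163, 149 and 151 FPKM in A306 and at 191, 180.5 and 186 FPKM in A798 and fell (log2 change -0.27, centred -0.63). One of 2 citrate synthase genes, BGIBMGA014294, stood at 14.9, 20.2 and 17.9 FPKM in A306 and at 35.3, 40.02 and 36.9 FPKM in A798 and fell (log2 change -1.05, centred -1.40), while BMO.2204, the other, overlapped between the strains and was not called (log2 change 0.27, centred -0.08).

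Of 3 enzymes that rebuild methionine from methylthioadenosine, 2 rose. BMO.5600, the dioxygenase of this salvage pathway, stood at 80.4, 75.4 and 71.05 FPKM in A306 and at 22.2, 16.97 and 20.3 FPKM in A798. In deposited FPKM the A306 libraries were more than 3-fold above the A798 libraries. The log2 change was 1.88 ± 0.11 as deposited and 1.53 ± 0.11 after centring (limma adjusted p = 0.000107 and 0.000219). BGIBMGA011049, the dehydratase of an earlier step, stood at 26.8, 18.3 and 22.2 FPKM in A306 and at 4.69, 6.17 and 9.5 FPKM in A798 and rose (log2 change 1.62, centred 1.27), a call lost without A306 replicate 1 or 3 or A798 replicate 2 (adjusted p up to 0.0566). The isomerase before it, BGIBMGA002478, stood at 25.98, 22.4 and 25.4 FPKM in A306 and at 15.01, 20.04 and 17.5 FPKM in A798 and was higher as deposited only (log2 change 0.47, centred 0.12). These genes stood in a list of 21 genes of amino acid and nucleotide metabolism, all measured, of which 8 rose and 1 fell (median 0.15). IVD, an enzyme of leucine breakdown, stood at 7.92, 9.36 and 7.84 FPKM in A306 and at 2.83, 2.91 and 2.34 FPKM in A798 (log2 change 1.34, centred 0.99). Serine hydroxymethyltransferase (BGIBMGA007079), which makes glycine from serine, stood at 83.8, 78.5 and 83.1 FPKM in A306 and at 52.2, 50.3 and 48.6 FPKM in A798 and rose (log2 change 0.69, centred 0.34). CTP synthase (BGIBMGA008116) stood at 4.26, 5.01 and 5.25 FPKM in A306 and at 2.24, 1.75 and 1.42 FPKM in A798 and rose (log2 change 1.07, centred 0.71), a call lost without A306 replicate 2 or 3 (adjusted p up to 0.0624). The gene that fell, BMO.4872, an enzyme of tyrosine breakdown, passed the filter through A798 alone and lost its call without any 1 of the libraries other than A798 replicate 2 (adjusted p up to 0.116).

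Genes of DNA replication and the cell cycle were low in both strains and 4 of 19 measured rose, none fell (median 0.12). CDC2, the kinase that starts mitosis, stood at 8.31, 8.53 and 9.42 FPKM in A306 and at 3.38, 4.29 and 3.92 FPKM in A798 and kept its call when any library was left out (log2 change 1.01, centred 0.65). The other 3 were replication factor C4 (BGIBMGA003377), the ribonucleotide reductase gene BMO.4128 and a gene described as cyclin dependent kinase 5 (BGIBMGA004018). They rose by 0.93, 0.34 and 0.45 after centring. The first lost its call without any 1 of the A306 libraries or A798 replicate 1, and the other 2 without any 1 of the libraries (adjusted p up to 0.0641, 0.0880 and 0.0894). PCNA, the clamp of the replication fork, stood at 8.25, 9.36 and 8.26 FPKM in A306 and at 6.06, 9.73 and 5.87 FPKM in A798 and overlapped. In the chromatin list 2 of 13 genes rose and 1 fell. A gene described as DNA supercoiling factor (BGIBMGA001107) stood at 163, 169 and 180.3 FPKM in A306 and at 50.9, 53.4 and 53.4 FPKM in A798. In deposited FPKM it was about 3-fold higher in A306. The log2 change was 1.68 ± 0.054 as deposited and 1.33 ± 0.065 after centring (limma adjusted p = 1.21e-05 and 5.52e-05). HIS2AV, a histone variant, rose by 0.52 after centring and lost its call without A306 replicate 1 or 3 or A798 replicate 1 or 3 (adjusted p up to 0.102). H4-L was listed at 0 in A306 and stood at 8.06, 2.6 and 1.1 FPKM in A798, and it was the gene of the list that fell. Its call was lost without any 1 of the A306 libraries or A798 replicate 2 (adjusted p up to 0.0626). Histone genes share so much sequence that their reads may be split between copies.

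The list of the respiratory chain and ATP synthase held 15 measured genes, of which 2 rose and none fell (median 0.13), beside 15.4% and 8.93% of all features. Another 1 was called lower after centring but not as deposited. UQCRC2, of complex III, stood at 83.2, 83.1 and 80.5 FPKM in A306 and at 52.6, 54.5 and 50.4 FPKM in A798 (log2 change 0.64, centred 0.28). One of 2 gene models named ATPSYN-BETA (BGIBMGA012549), the catalytic subunit of ATP synthase, stood at 748, 748 and 719.9 FPKM in A306 and at 461, 464 and 468 FPKM in A798 and rose (log2 change 0.67, centred 0.31). Reads could be shared between these models. Subunit G of the vacuolar ATPase (BGIBMGA013678), a proton pump, stood at 286, 305 and 272 FPKM in A306 and at 465, 475 and 466 FPKM in A798 and fell (log2 change -0.71, centred -1.06), the only one of 4 measured subunits to do so. Of 12 redox defence genes SOD2, a superoxide dismutase, rose, at 143, 139.5 and 135 FPKM in A306 and at 92.4, 90.4 and 88.4 FPKM in A798 (log2 change 0.62, centred 0.26). Another 4 of them were called lower after centring but not as deposited.

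Detoxification genes and lipases moved in both directions. Of 12 measured detoxification genes 3 rose and 4 fell (median -0.36), with 2 kept through A798 alone. GSTD3, a glutathione S-transferase, stood at 14.8, 18.2 and 18.5 FPKM in A306 and at 8.02, 8.84 and 6.04 FPKM in A798 and rose (log2 change 1.08, centred 0.73), a call lost without A306 replicate 2 or 3 (adjusted p up to 0.0519). The delta-class gene BGIBMGA002222 stood at 23.4, 24.9 and 48.3 FPKM in A306 and at 4.82, 7.98 and 9.74 FPKM in A798 and rose as well (log2 change 1.93, centred 1.58), with 1 A306 library far above the other two. Its call was lost without A798 replicate 1 or 2 (adjusted p up to 0.0572). UGT2, a glycosyltransferase, stood at 884, 834 and 853 FPKM in A306 and at 619.7, 591 and 589 FPKM in A798 and rose by the least (log2 change 0.51, centred 0.16). Its call was lost without A306 replicate 1 (limma adjusted p = 0.0513), and also without the intensity trend or with a pseudocount of 0.1 (adjusted p up to 0.116). The sigma-class gene BGIBMGA009107 was listed at 0 in A306 and stood at 11.5, 15.9 and 9.07 FPKM in A798. Cytochrome b5 (BGIBMGA014207), an electron carrier for such enzymes, stood at 3.01, 9.37 and 0 FPKM in A306 and at 73.7, 71.4 and 50.1 FPKM in A798 and fell (log2 change -4.23, centred -4.59). A carboxylesterase gene (BGIBMGA001841) fell slightly (log2 change -0.25, centred -0.60) and lost its call without A306 replicate 2 or 3 or A798 replicate 1 or 3 (adjusted p up to 0.0615), and CYP306A1 is described above. Of 17 lipase genes matched 3 passed the filter, each through 1 strain alone, so their difference was built in. The lipase BGIBMGA012648 stood at 19.1, 27.6 and 29.2 FPKM in A306, was listed at 0 in A798, and stood at 85.1, 90.7 and 96.5 FPKM in XH. BGIBMGA014574 stood at 0.66, 0.6 and 0.32 FPKM in A306 and at 7.69, 7.64 and 7.43 FPKM in A798, and the acid lipase BGIBMGA005695 at 0.04, 0.16 and 0.04 FPKM in A306 and at 3.6, 4.79 and 4.59 FPKM in A798, in the opposite direction.

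One cuticle protein gene outweighed all others of its list. Of 178 genes matched 19 were measured, 3 rose and 3 fell, and 159 were below the filter. BGIBMGA005303, described as CPH44 though its symbol, CPH43, is shared with the model BGIBMGA005302, stood at 13065, 12655 and 11663 FPKM in A306 and at 3269, 3148 and 3122 FPKM in A798. In deposited FPKM it was more than 3-fold higher in every A306 library. The log2 change was 1.97 ± 0.049 as deposited and 1.62 ± 0.04 after centring (limma adjusted p = 4.63e-06 and 5.07e-06), and XH was near A798 at 3541, 3543 and 3959.6 FPKM. It held nearly all of the summed FPKM of the list, 12113 to 13470 in A306 and 3482 to 3640 in A798, and it had the largest difference in mean FPKM of any named gene that rose. Cuticle proteins cover the epidermis, and the inner lining of the gland's ducts is cuticle as well. The other members that rose were BMORCPH21, at 9.85, 13.4 and 10.9 FPKM in A306 and at 1.93, 0.91 and 0 FPKM in A798, and BMORCPH10, at 1.52, 1.48 and 1.26 FPKM in A306 and at 0.55, 0 and 0 FPKM in A798. The call of BMORCPH10 was lost without any 1 of the libraries other than A798 replicate 1 (limma adjusted p up to 0.119). It was also lost with a pseudocount of 0.1 or 5 or with the replicate block (adjusted p up to 0.254). It passed the filter through A306 alone and BMORCPR101 through A798 alone, so the difference in both was built in. BMORCPR101 stood at 0, 0.25 and 0.13 FPKM in A306 and at 23.7, 26.1 and 22.6 FPKM in A798 and fell (log2 change -4.48, centred -4.84), and XH stood with A306 at 0.24, 0 and 0 FPKM. BMORCPR43 stood at 6.97, 7.63 and 3.37 FPKM in A306 and at 32.99, 18.9 and 30.4 FPKM in A798 and fell (log2 change -2.05, centred -2.40). BMORCPR23 stood at 0, 0 and 1.1 FPKM in A306 and at 6.16, 6.75 and 21.1 FPKM in A798 and fell as well (log2 change -3.06, centred -3.42). Members of this family share sequence, and reads may be split between them.

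Transcripts of the fat body and haemolymph list were lower in A306. Of 18 genes matched 9 were measured, 2 of them through A798 alone, and these 9 fell (median -3.29), while the other 9 were below the filter. Their summed FPKM was 70.2 to 77.3 in A306 and 622 to 641 in A798. The 30K lipoprotein BMO.682 stood at 17.5, 16.8 and 18.2 FPKM in A306 and at 172, 178 and 171 FPKM in A798. In deposited FPKM the A798 libraries were about 10-fold above those of A306. The log2 change was -3.24 ± 0.05 as deposited and -3.59 ± 0.051 after centring (limma adjusted p = 1.09e-06 and 5.37e-07). LP-C12, of the same family, changed least, at 20.7, 20.3 and 19.2 FPKM in A306 and at 32.5, 28.7 and 27.1 FPKM in A798 (log2 change -0.53, centred -0.88). The storage protein SP3 stood at 4.51, 4.44 and 3.84 FPKM in A306 and at 40.6, 38.9 and 35.8 FPKM in A798 (log2 change -2.91, centred -3.26). SP1, a storage protein known mostly from females, stood at 0.07, 0.07 and 0 FPKM in A306 and at 57.95, 65.2 and 57.6 FPKM in A798, and the part of sex in this difference was not tested. BMO.4927, another 30K lipoprotein, stood at 1.06, 1.41 and 1.33 FPKM in A306 and at 56.9, 53 and 59.1 FPKM in A798 (log2 change -4.66, centred -5.02). In bulk RNA fewer cells of a type and less RNA per cell cannot be told apart, and whether the glands carried different amounts of fat body was not tested. The 30K genes are near copies of each other, so the split of reads between them is uncertain.

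Of 24 immune effector genes matched 7 were measured, 3 of them through A798 alone, and 5 fell (median -2.47). A lysozyme gene (BGIBMGA010439) stood at 1.52, 2.23 and 0 FPKM in A306 and at 21.6, 20.7 and 11.9 FPKM in A798 (log2 change -3.20, centred -3.55). PGRP-S1, which recognises bacterial cell wall, stood at 5.14, 9.45 and 9.61 FPKM in A306 and at 20.1, 19.8 and 15.8 FPKM in A798 (log2 change -1.15, centred -1.50). Lebocin (LEB1/2) and the gloverins GLV3 and BGLOV2 were at or near 0 in A306 and between 2.04 and 5 FPKM in A798. The other 2 overlapped and were not called on both scales: scolexin (BGIBMGA006423), at 2.48, 3.45 and 3.37 FPKM in A306 and at 3.95, 4.33 and 3.42 FPKM in A798 (log2 change -0.26, centred -0.62), and IRP1, at 1.29, 1.05 and 1.4 FPKM in A306 and at 1.2, 0.47 and 0.18 FPKM in A798 (log2 change 0.52, centred 0.17). The 2 measured genes of the muscle list differed in sign after centring. Muscle-type actin A1 stood at 69.2, 76.7 and 72.6 FPKM in A306 and at 38.95, 40.7 and 34.98 FPKM in A798 and rose (log2 change 0.91, centred 0.56). The myosin light chain gene BGIBMGA012961 stood at 1.33, 3.78 and 3.49 FPKM in A306 and at 4.13, 3.05 and 2.57 FPKM in A798, overlapped and was not called (log2 change -0.19, centred -0.54). The phenoloxidase gene PPO1 of haemocytes stood at 1.93, 2.47 and 2.93 FPKM in A306 and at 1.63, 1.29 and 1.21 FPKM in A798 and was not called (log2 change 0.53, centred 0.18). None of 5 midgut genes reached the filter.

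Some features were listed at 0 in all libraries of 1 strain and at no less than 1 FPKM in each library of the other. Of these 48 were at 0 in A306 and 56 in A798, and 5 in each direction carried a name or description. The 48 had a median of 4.002 FPKM in A798 and a highest mean of 319 FPKM, and 23 reached 1 FPKM in each XH library while 9 were at 0 in all of them. The 56 had a median of 4.50 FPKM in A306 and a highest mean of 747 FPKM, and 8 reached 1 FPKM in each XH library while 24 were at 0 in all of them. The named genes at 0 in A798 were the lipase BGIBMGA012648, RABB, USP, the mitochondrial protease HTRA2, at 7.51, 4.27 and 6.4 FPKM in A306, and an acyl-coenzyme A oxidase gene (BGIBMGA002716), at 2.21, 1.55 and 1.43 FPKM. Those at 0 in A306 were BGIBMGA009107, GLV3, BGLOV2, H4-L and the Atf2 gene BGIBMGA001375, at 1.91, 1.3 and 2.24 FPKM in A798. The most abundant had no name. BGIBMGA007628 stood at 329, 334 and 320.2 FPKM in A306, and BGIBMGA011768 at 1060.4, 754 and 426 FPKM, both listed at 0 in A798. BGIBMGA009791 stood at 308, 335 and 315 FPKM in A798 and at 495, 505 and 463 FPKM in XH, and BGIBMGA013123 at 107, 94.2 and 83.04 FPKM in A798 and at 0 in XH. Whether such a feature is absent from a strain, differs in sequence from the gene model or failed in the estimate was not tested.

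Of 13 other transcription factor genes 3 rose and 1, the Atf2 gene, fell (median 0.28). A zinc finger gene (BGIBMGA004191) stood at 865, 936 and 784 FPKM in A306 and at 457, 474 and 467 FPKM in A798 and was the most abundant of them (log2 change 0.88, centred 0.53). CBZ, a b-ZIP factor named for the eggshell chorion genes, stood at 37.9, 33.7 and 35.6 FPKM in A306 and at 17.04, 16.9 and 13.4 FPKM in A798 (log2 change 1.14, centred 0.78). Of 14 signalling genes 2 rose and 2 fell. A receptor tyrosine kinase gene (BGIBMGA011535) stood at 3.3, 3.69 and 3.87 FPKM in A306 and at 0, 0.02 and 0.02 FPKM in A798 and rose (log2 change 2.19, centred 1.83), having passed the filter through A306 alone. RAS3, a small GTPase, rose by 0.46 after centring, and its call was lost without any 1 of the libraries other than A798 replicate 3 (adjusted p up to 0.106). TAB1, described as Tak1, and the TRAF6 gene BGIBMGA001290, both of immune signalling, fell by 0.89 and 1.56 after centring, the first with a call lost without any 1 of the A798 libraries (adjusted p up to 0.0675) and the second kept through A798 alone. Of 7 cytoskeleton genes the alpha-tubulin TUA1 fell, at 1504, 1520.2 and 1463 FPKM in A306 and at 1690.0, 1933 and 1701 FPKM in A798 (log2 change -0.24, centred -0.60), a call lost without A306 replicate 1 or 3 (adjusted p up to 0.0581). Of protease inhibitors the Kazal-type gene BGIBMGA011573 stood at 24.9, 21.3 and 30.7 FPKM in A306 and at 2.45, 3.18 and 1.13 FPKM in A798 and rose (log2 change 3.07, centred 2.72), 1 of 4 measured. Among 7 proteases HTRA2 and the methionine aminopeptidase genes BGIBMGA009963 (log2 change 0.75, centred 0.40) and BGIBMGA002394 rose. The call of the last was lost without A306 replicate 2 or 3 or A798 replicate 2 or 3 (adjusted p up to 0.0673).

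The authors deposited 5 genes apart from the main table, with their own annotation and the same FPKM, and all 5 fell. BMSUC1 and glucose dehydrogenase are described above. An alkylglycerol monooxygenase gene (BGIBMGA002524), whose enzyme cleaves ether lipids, stood at 0.22, 0.09 and 0.42 FPKM in A306 and at 17.4, 18.2 and 18.1 FPKM in A798 and was kept through A798 alone (log2 change -3.93, centred -4.29). An odorant binding protein gene (BGIBMGA002629), of a family that carries small hydrophobic molecules, stood at 438, 448 and 413 FPKM in A306 and at 681, 663 and 696 FPKM in A798 (log2 change -0.65, centred -1.004). BGIBMGA010889, annotated as zonadhesin, stood at 8.64, 7.86 and 9.66 FPKM in A306 and at 14.97, 12.4 and 10.6 FPKM in A798 (log2 change -0.48, centred -0.84), and lost its call without any 1 of the A306 libraries or A798 replicate 1 or 2 (adjusted p up to 0.105). XH stood far above both strains in this gene, at 137, 126 and 132 FPKM, and below both in the odorant binding protein gene, at 317, 301 and 348 FPKM.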

How the data were processed

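RNA-seq libraries of silk glands, 3 of strain A306 and 3 of A798, were analysed from a table of FPKM that the authors deposited for genes and small RNA models. Tools in the submitters' processing notes were StringTie 1.3.3b, DESeq2 1.24.0 and fastp 0.19.5. Aligner, genome build, annotation and strandedness were not given in the sources used here. FPKM keep no depth, and low values showed no steps of single fragments, so depth is unknown. The 3 columns of strain means were not used. A second table, named for raw counts, held FPKM of 5 genes equal to the first (largest difference 0).

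Features with at least 1 FPKM in 3 or more of the 6 libraries were put on the log2(FPKM + 1) scale, which understates changes at low levels. Strain means were fitted with limma 3.58.1 (R 4.3.3) and an intensity trend, two-sided, with Benjamini-Hochberg adjustment over all 4243 features, as deposited and after median centring; tables were handled in Python 3.11.15 with pandas 2.3.3 and numpy 2.4.6. Errors beside changes are limma standard errors.

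The comparison and the 40 gene lists were chosen with earlier results of these data known, and the lists were matched on words, so they hold only genes with a name or description. The RefSeq gene table at hand shared no identifier with the files (0 matches), so no positions are given. Genes were named by rule: all silk structural genes and silk gland factors; the 10 highest and 10 lowest changes among described genes called on both scales, without overlap and with at least 5 FPKM in the higher strain; up to 4 called members per list, or else the most abundant; the 10 most abundant features and the 10 largest differences in FPKM; up to 5 described features per strain listed at 0 in it; and 2 features without a name per direction. The 5 genes of the second table and other called members of short counts were added after their values were seen. Alternatives were other pseudocounts (0.1 and 5), filters, scalings and library sets, a replicate block and a fit of all 9 libraries.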

Additional observations from a re-analysis of the deposited data

How the results depend on the processing

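Of 107 named genes that rose or fell, 82 kept the call under each alternative that held them, 64 of them under all 18 and 18 under 16 or 17, and 25 lost it under at least 1. The counts of 1648 higher and 379 lower features as deposited depended most on the scale: they were 692 and 667 with a trimmed mean of log ratios, 721 and 606 under quantile normalization, and 1075 and 502 with the FPKM sum outside small RNA models and the 20 most abundant features made equal. The share of higher calls was 81.3% as deposited, 47.8% after centring, and 50.9%, 54.3% and 68.2% under these 3 scalings. In the last the count of features higher after centring, or on both scales, was 1075 instead of 652. Without a filter on level that count was 1315, since the median then lies among features near 0, and with at least 5 FPKM in 3 libraries the lower features were 239, fewer being tested. Median centring moved all features by 0.35 on the log2 scale and the trimmed mean by 0.33. Leaving out 1 library each gave 1292 to 1484 higher and 324 to 360 lower as deposited, and 479 to 558 higher and 578 to 632 lower after centring.

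Small changes turned sign with the scale. For P25 the change was -0.0736 with the trimmed mean, and in place of its centred value 0.22 without a filter and 0.11 under quantile normalization. For FIBL it was -0.0919 with the trimmed mean, and in place of its centred value 0.050 with the equal sum, 0.20 without a filter, 0.015 with a pseudocount of 5 and 0.28 under quantile normalization. SGF1 and SGF3 went to -0.32 and -0.33 under quantile normalization and to -0.31 and -0.30 with the trimmed mean. Among abundant genes without a name, BGIBMGA000013 went to -0.11 with the equal sum, -0.25 with the trimmed mean, 0.045 without a filter and 0.12 under quantile normalization, BGIBMGA003412 to -0.21, 0.087 and 0.18 under the last 3, and BGIBMGA009411 to -0.25 with the trimmed mean and 0.040 without a filter. The cause was not tested.

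The labels do not say whether same-numbered libraries share more than a number. The deviations of their log2 values from the strain means correlated at r = 0.033, 0.063 and 0.075 across features. A798 replicate 1 correlated best with A306 replicate 2, each of the other 5 with its own number, and whether the number marks a batch was not tested. With the replicate number as a block, 1427 features were higher and 348 lower as deposited, and 516 and 618 after centring. Depth is unknown, so how far it limits low features cannot be given.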
